A study of Mus musculus with 4 samples.

Results

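The genes described here are 10 members of the Wnt signalling pathway in the mouse: the ligand gene Wnt7b, the R-spondin receptor genes Lgr4 and Lgr5, the transcription factor genes Lef1 and Tcf7, and the feedback genes Axin2, Nkd1, Notum, Rnf43 and Znrf3. They were picked by symbol, with earlier results of these data known, and all 10 were found among the 24391 genes counted. RNA was sequenced from 4 lung tumour samples. The 2 K-Ras samples carried K-Ras LSL-G12D, a mutant K-Ras allele kept silent by a stop cassette until Cre recombinase removes it, and the 2 K-Ras Mll4-/- samples carried the same allele with floxed Mll4 (Mll4 fl/fl). Mll4, whose current symbol is Kmt2d, is a chromatin enzyme that places methyl groups on histone H3 at enhancers. The Cre source, the ages and whether each sample came from 1 mouse are not given in the sources used here, so p-values measure only the spread between these samples, which may be technical. Cells carrying the leukocyte antigen CD45 had been depleted from every sample before RNA extraction.

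Wnt proteins are secreted lipid-modified ligands that bind Frizzled receptors with the co-receptors Lrp5 and Lrp6. In the canonical branch this keeps beta-catenin from being destroyed, and beta-catenin then joins TCF/LEF factors on DNA to switch on target genes. Several targets feed back on the pathway, which is why Axin2, Nkd1, Notum, Rnf43 and Znrf3 are read as measures of its output. In the lung, Wnt signals maintain a fraction of alveolar type 2 cells, and in K-Ras lung adenocarcinoma they support a niche of Lgr5-positive tumour cells and their Wnt-producing neighbours.

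Promoter sequences were found for 6 of the 10 members in a RefSeq table (build GRCm38.p6), and Lgr5, Notum, Wnt7b and Znrf3 had no entry. The 3 below are shown because Axin2 is a standard read-out of the pathway, because Rnf43 was the single member higher in both Mll4-/- samples, and because this Lef1 start is the single member start with a match to the TCF/LEF motif. The other Lef1 starts in the table lie upstream of it and had no match. Another Rnf43 start, not shown, had none either. Each run gives the 250 bases before an annotated start, 5′ to 3′ on the gene's strand. Capitals mark a match to the TCF/LEF core CTTTG followed by AA or AT or by TA or TT, on either strand, where the match on the minus strand reads as the reverse complement.
Axin2, chr11:108920099-108920348, plus strand: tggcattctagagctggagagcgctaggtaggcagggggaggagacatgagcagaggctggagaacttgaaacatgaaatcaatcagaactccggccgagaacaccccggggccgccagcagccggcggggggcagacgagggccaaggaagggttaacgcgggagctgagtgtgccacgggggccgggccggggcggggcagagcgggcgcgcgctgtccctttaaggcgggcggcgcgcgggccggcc
Rnf43, chr11:87662837-87663086, plus strand: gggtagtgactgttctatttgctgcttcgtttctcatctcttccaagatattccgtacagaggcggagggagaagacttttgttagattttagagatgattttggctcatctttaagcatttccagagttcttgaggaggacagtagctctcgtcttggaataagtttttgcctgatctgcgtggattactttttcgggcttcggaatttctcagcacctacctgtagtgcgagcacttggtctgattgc
Lef1, chr3:131156044-131156293, plus strand: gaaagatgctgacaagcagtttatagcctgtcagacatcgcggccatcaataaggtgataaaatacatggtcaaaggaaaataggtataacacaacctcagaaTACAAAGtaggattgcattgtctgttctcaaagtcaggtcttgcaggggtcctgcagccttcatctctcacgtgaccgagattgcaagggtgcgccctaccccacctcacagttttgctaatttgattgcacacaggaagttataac
A match occurred in 14.8% of the 32817 promoter windows of the same length in that table. Over the 11 windows of the 6 members, G and C made up 44.4% to 76% of the bases. These letters describe the windows and say nothing about factor binding.

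Libraries held between 26683033 and 36677987 reads assigned to genes. A floor of 3 reads, the most that a count of 0 allows for counting error alone, equals 0.083 to 0.114 CPM (reads scaled to a common library size). Kmt2d stood at 395 and 526 CPM in the K-Ras samples and at 367 and 317 CPM in the Mll4-/- samples, so that the log2 difference was -0.43 with an SE of 0.21 (edgeR quasi-likelihood test, adjusted p = 0.302). With offsets for GC content and length, chosen after seeing the data, it was -0.0091, and without K-Ras replicate 2 it was -0.22. The genotype is therefore taken from the labels. Marker genes of other cell types were detected, with no marker at 0 in all samples. Of the 4 mesothelial markers, Wt1 (2 to 5 reads a sample) and Upk3b (1 to 23 reads a sample) were too low to test. Msln was higher in both Mll4-/- samples, at 13.8 and 17.0 CPM in K-Ras against 120 and 221 CPM. Its log2 fold change was 3.47 (SE 0.36, edgeR adjusted p = 0.116). Lrrn4, with 8 to 20 reads a sample, overlapped (log2 fold change -0.40, SE 0.62). Summed CPM of 6 epithelial markers was 1107 and 1723 in K-Ras and 3514 and 3702 in Mll4-/- samples, that of 7 fibroblast markers was 2467 and 1124 against 838 and 853, and that of 7 endothelial markers was 4289 and 4484 against 3207 and 2480. Of the 6 epithelial markers, 5 were higher in both Mll4-/- samples, against 29.9% of all tested genes. The exception, Nkx2-1, overlapped, at 45.7 and 62.7 against 47.7 and 64.9 CPM. Of the 7 fibroblast markers, 6 were lower in both Mll4-/- samples, against 28.5% of all tested genes, and Lum overlapped. Of the 7 endothelial markers, 5 were lower in both, and Kdr and Emcn overlapped. Sums of 5 alveolar type 2 markers (13730 and 23480 against 20120 and 21070) and 5 alveolar type 1 markers (552 and 764 against 751 and 648) also overlapped. Single markers within these sums went both ways. Aqp5 (144 and 245 against 445 and 411 CPM) and Rtkn2 were higher in both Mll4-/- samples. Ager was lower, at 339.5 and 448 against 211 and 157 CPM, and Hopx and Pdpn overlapped. Sftpb was higher, at 2870 and 5627 against 7042 and 10340 CPM. Sftpa1 was lower, at 3942 and 5409 against 3852 and 3403 CPM. K-Ras replicate 2 stood apart in 5 ciliated-cell markers, at 572 CPM against 94.2 in K-Ras replicate 1 and 51.4 and 56.8 in Mll4-/- samples. In bulk tissue, fewer cells of a type and less RNA per cell cannot be told apart.

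Most feedback genes were lower in Mll4-/- tumours, Rnf43 was higher, and the ligand and transcription factor members overlapped between the groups. Of the 10 members, Axin2, Nkd1, Notum, Znrf3 and Lgr4 were lower in both Mll4-/- samples than in both K-Ras samples, where 28.5% of the 16001 tested genes were so placed. Rnf43 was higher in both, as were 29.9% of tested genes. None of the 10 was called at an adjusted p under 0.05 (edgeR quasi-likelihood), against 0.0375% of all tested genes, or 6 genes. Axin2 and Notum had an unadjusted p under 0.05 and were lower, against 10.4% of tested genes lower at that level, and 0 members were higher against 11.4%. DESeq2 also called 0 members, against 10.4% of all genes with an adjusted p, and had 3 at an unadjusted p under 0.05 against 21.5%. With limma-voom 0 members and 0% of all genes were called, and 2 members had an unadjusted p under 0.05 against 20.2%. With the GC and length offsets no member had an unadjusted p under 0.05, against 3583 of the 16001 tested genes. In the edgeR fit without offsets, a negative log2 fold change was found for 9 of the 10 members and for 51.2% of all tested genes. The median over the members was -0.32, and that of all tested genes was -0.01. Leaving out 1 library at a time moved the members' median to between -0.53 (without Mll4-/- replicate 1) and -0.24 (without Mll4-/- replicate 2). All 10 members passed the filter on low counts.

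**Figure D1:**
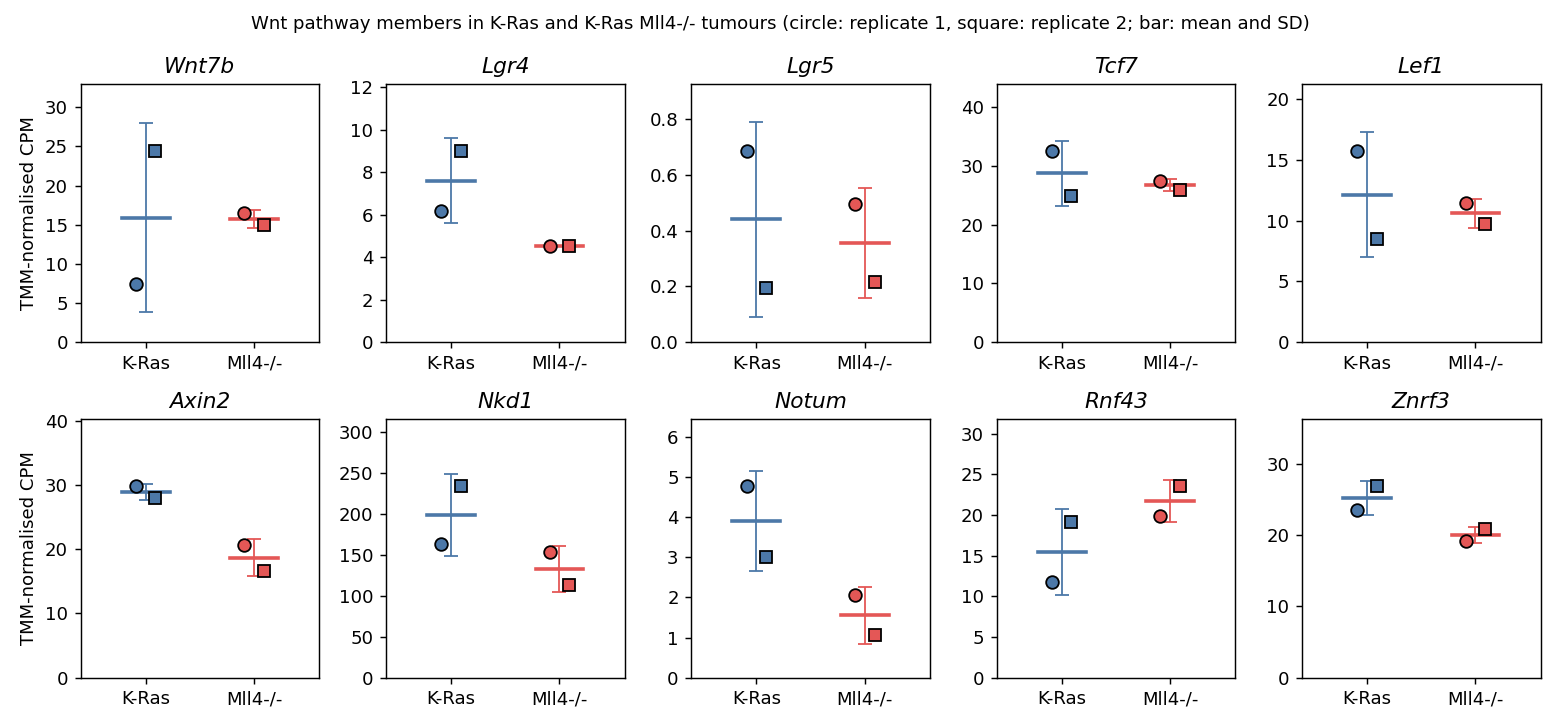
TMM-normalised CPM (y axis, from 0) of the 10 members in each of the 4 samples, K-Ras in blue and K-Ras Mll4-/- in red, with circles for replicate 1, squares for replicate 2, and bars for the mean and SD. Axin2, Nkd1, Notum, Znrf3 and Lgr4 sit lower in both red samples, Rnf43 sits higher, and the K-Ras values of Wnt7b lie on both sides of the Mll4-/- values.

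Wnt7b encodes a Wnt ligand of the lung epithelium. It was at 7.39 and 24.5 CPM in the K-Ras samples and at 16.6 and 14.9 CPM in the Mll4-/- samples. Both Mll4-/- values thus fell between the K-Ras values, and the spread within the K-Ras group exceeded any difference between group means (log2 fold change -0.02, SE 0.58, edgeR adjusted p = 0.987). The direction rested on single libraries: without K-Ras replicate 1 the log2 fold change was -0.63, and without K-Ras replicate 2 it was 1.08. K-Ras replicate 2, the highest for Wnt7b, was also the highest in the ciliated markers above and in 3 club-cell markers (3429 CPM against 539 to 701 in the other samples), and their part in the Wnt7b value was not tested. An antisense gene counted in the files, AU022754, overlaps 236 of the 4613 exonic bases of Wnt7b in GENCODE M21.

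The other ligands put Wnt7b in context. Of 18 further Wnt genes, 12 were tested, 10 of them with a negative log2 fold change (51.2% of all tested genes had one), and the median was -0.51. Wnt7a, the closest relative of Wnt7b, was at 7.32 and 8.82 CPM in K-Ras samples and at 57.9 and 107 CPM in Mll4-/- samples. The groups were far apart, with a log2 fold change of 3.35 (SE 0.36), although the edgeR adjusted p was 0.117. DESeq2 called Wnt7a, at an adjusted p of 1.82e-16, and limma-voom did not (limma-voom adjusted p = 0.151). Here and below, a DESeq2 adjusted p is printed only for the 10 pathway genes that DESeq2 called. Of these genes, limma-voom called 0. Wnt11, a ligand mostly linked to beta-catenin-independent signalling, went the other way, from 5.26 and 14.9 CPM to 1.94 and 1.89 CPM (log2 fold change -2.40, SE 0.58, edgeR adjusted p = 0.167; DESeq2 adjusted p = 0.00161). Without K-Ras replicate 2, its highest library, the log2 fold change of Wnt11 was -1.47. Wnt2, a ligand of lung mesenchyme, was low throughout, at 0.654 and 1.02 CPM against 0.267 and 0.403 CPM (edgeR adjusted p = 0.243). Wnt5a, the prototype beta-catenin-independent ligand, overlapped between the groups, at 15.7 and 8.41 CPM against 12.5 and 12.3 CPM.

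Divided by exon length, the ligand genes can be compared with each other, as FPKM, the CPM per kilobase of exon. Wnt7b made up 13.4% and 27.9% of the summed FPKM of all 19 ligand genes in the K-Ras samples and 12.8% and 7.56% in the Mll4-/- samples. Wnt7a made up 19.3% and 14.6% in K-Ras samples and 65.3% and 78.6% in Mll4-/- samples. It was the leading ligand gene in both Mll4-/- samples and, narrowly, in K-Ras replicate 1, where Wnt5a made up 18.6%. In K-Ras replicate 2 the leading ligand gene was Wnt7b. The ratio of Wnt7a to Wnt7b in FPKM was 1.44 and 0.525 in K-Ras and 5.09 and 10.4 in Mll4-/- samples. The summed ligand FPKM was 11.95 and 19.03 against 28.0 and 42.8. Of the 6 ligand genes that were not tested, Wnt1 had 0 reads in every sample, which allows no more than the 3-read floor given above.

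**Figure D2:**
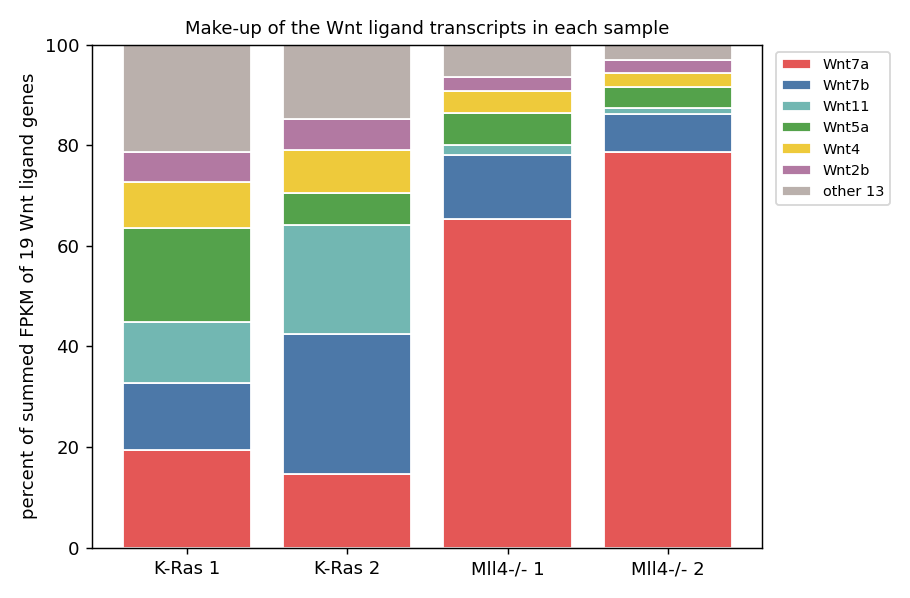
Share of each Wnt ligand gene (y axis, percent of the summed FPKM of 19 ligand genes) in each of the 4 samples. Wnt7a takes 65.3% and 78.6% in the Mll4-/- samples against 19.3% and 14.6% in K-Ras samples, and Wnt7b takes between 7.56% and 27.9%.

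Of the 7 genes of Wnt secretion and R-spondin signalling, 5 were tested, with 3 positive and 2 negative log2 fold changes. Porcn, the acyltransferase that attaches the lipid which every canonical Wnt needs, was at 18.7 and 52.8 CPM in K-Ras and 263 and 479 CPM in Mll4-/- samples. The K-Ras samples differed from each other, yet both stayed well below the Mll4-/- samples (log2 fold change 3.37, SE 0.63, edgeR adjusted p = 0.147; DESeq2 adjusted p = 1.09e-08). For Porcn it was 4.30 without K-Ras replicate 2 and 2.82 without K-Ras replicate 1. Wls, the carrier that takes Wnt proteins to the cell surface, was at 130 and 147 CPM against 185 and 253 CPM (log2 fold change 0.67, SE 0.20, edgeR adjusted p = 0.189). The summed epithelial markers were likewise higher in both Mll4-/- samples, as given above, and their part in the Wnt7a, Porcn and Wls values was not tested.

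Lgr4 and Lgr5 encode receptors for R-spondins, secreted proteins that keep the ligases Rnf43 and Znrf3 away from Frizzled and so prolong Wnt signalling. Lgr4 was at 6.18 and 9.02 CPM in K-Ras samples and at 4.53 CPM in both Mll4-/- samples. Both Mll4-/- values were below both K-Ras values (log2 fold change -0.75, SE 0.29, edgeR adjusted p = 0.237). Without K-Ras replicate 2 the log2 fold change of Lgr4 was -0.46. Lgr5, a marker of Wnt-responsive stem cells, had 21 and 7 reads in K-Ras samples and 13 and 7 reads in Mll4-/- samples. No difference in Lgr5 was detectable at this depth (log2 fold change -0.30, SE 0.84, edgeR adjusted p = 0.858), and its sign turned, to 0.85 without K-Ras replicate 1 and to 0.17 without Mll4-/- replicate 2.

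Lgr6, the third receptor of the family, was at 2.81 and 2.19 CPM in K-Ras samples and at 7.16 and 10.5 CPM in Mll4-/- samples (log2 fold change 1.82, SE 0.33, edgeR adjusted p = 0.147; DESeq2 adjusted p = 8.14e-04). By FPKM, Lgr4 made up 68.4% and 83.0% of the summed Lgr4, Lgr5 and Lgr6 signal in K-Ras samples and 43.4% and 35.9% in Mll4-/- samples. Lgr6 made up 23.4% and 15.1% against 51.6% and 62.3%, so the most abundant receptor transcript was Lgr4 in one group and Lgr6 in the other. The summed FPKM of the 3 genes overlapped between the groups, at 1.79 and 2.15 against 2.07 and 2.50. Among the R-spondins, Rspo2 and Rspo4 were too low to test, Rspo1 had at most 13 reads in a sample, and Rspo3 had 43 and 17 reads in K-Ras against 4 and 7 in Mll4-/- samples (edgeR adjusted p = 0.202).

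**Figure D3:**
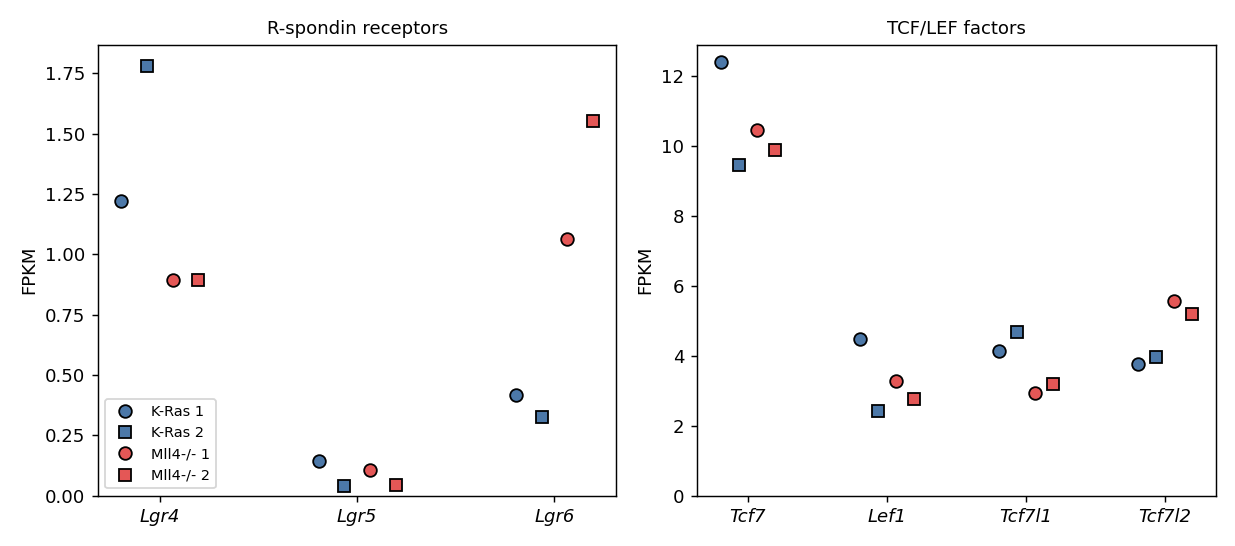
FPKM (y axis, from 0) of the R-spondin receptor genes, left, and of the TCF/LEF genes, right, in each sample, with K-Ras in blue, Mll4-/- in red, circles for replicate 1 and squares for replicate 2. Lgr4 is the highest receptor in both K-Ras samples and Lgr6 in both Mll4-/- samples, while Tcf7 is the highest TCF/LEF gene in all 4 samples.

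Among the Frizzled receptors and co-receptors, 15 of 16 genes were tested, 1 was higher and 1 lower at an unadjusted p under 0.05 (against 11.4% and 10.4% of all tested genes), and the median log2 fold change was -0.37. Fzd1 was lower, at 58.2 and 60.8 CPM against 44.6 and 36.9 CPM (log2 fold change -0.55, SE 0.15, edgeR adjusted p = 0.177). Ror2, a co-receptor for Wnt5a, was higher, at 6.24 and 3.04 CPM against 13.6 and 9.83 CPM (log2 fold change 1.34, SE 0.43, edgeR adjusted p = 0.201). Fzd5, an epithelial Frizzled, had a log2 fold change of 0.70 (SE 0.26) with an edgeR adjusted p of 0.231. The most abundant genes of the list by FPKM were Lrp5 and Lrp6, which shared a positive sign, at log2 fold changes of 0.68 and 0.35 (edgeR adjusted p = 0.236 and 0.331). Leaving out 1 library moved the log2 fold change of Ror2 to 1.95 or 0.89 (without K-Ras replicate 1 or 2). It moved Fzd5 to 0.98 or 0.35 (without Mll4-/- replicate 1 or 2) and Lrp5 to 0.39 or 1.03 (without K-Ras replicate 1 or 2).

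Lef1 and Tcf7 encode HMG-box factors that carry beta-catenin to its target genes, and both are also abundant in T lymphocytes. Tcf7 was at 32.6 and 24.8 CPM in K-Ras samples and at 27.5 and 26.0 CPM in Mll4-/- samples. Lef1 was at 15.8 and 8.52 CPM in K-Ras and at 11.5 and 9.74 CPM in Mll4-/- samples. For both genes the Mll4-/- values lay between the K-Ras values, with log2 fold changes of -0.10 (SE 0.18) for Tcf7 and -0.19 (SE 0.35) for Lef1 (edgeR adjusted p = 0.769 and 0.773). Each changed sign without K-Ras replicate 1, to 0.11 and 0.32. The summed CPM of 10 T-lymphocyte markers was 229 and 118 in K-Ras samples and 181 and 159 in Mll4-/- samples. The 4 samples thus stood in the same order for the T-lymphocyte sum, for Tcf7 and for Lef1, with K-Ras replicate 1 highest and K-Ras replicate 2 lowest, and the part of these cells in the values was not tested. In GENCODE M21, an antisense gene covers 1208 of the 3506 exonic bases of Lef1.

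By FPKM, Tcf7 made up 46.1% to 50.01% of the summed signal of the 4 TCF/LEF genes in every sample, and Lef1 made up 11.8% to 18.1%. Tcf7l2, the TCF gene of most epithelia, was at 16.6 and 17.6 CPM in K-Ras samples and at 24.7 and 23.0 CPM in Mll4-/- samples (log2 fold change 0.48, SE 0.15, edgeR adjusted p = 0.192). Its share of the TCF/LEF signal was 15.2% and 19.3% against 25.1% and 24.7%. Of the 11 nuclear partners of beta-catenin, 2 were higher and 3 lower at an unadjusted p under 0.05, beside 11.4% and 10.4% of all tested genes. The co-repressor gene Tle2 had the smallest p among them and was lower, at 42.4 and 55.7 CPM against 26.3 and 25.0 CPM (log2 fold change -0.94, SE 0.18, edgeR adjusted p = 0.147; DESeq2 adjusted p = 0.00497). The beta-catenin co-activator gene Bcl9l was also lower (log2 fold change -0.56, SE 0.19, edgeR adjusted p = 0.208; -0.19 with the GC and length offsets and -0.32 without K-Ras replicate 2), while the co-repressor genes Tle3 and Tle1 had log2 fold changes of 0.38 and -0.19. Tle1 turned to 0.39 without K-Ras replicate 2.

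Axin2 encodes a scaffold of the complex that destroys beta-catenin and is a standard read-out of canonical Wnt signalling. It was at 29.8 and 28.0 CPM in K-Ras samples and at 20.7 and 16.6 CPM in Mll4-/- samples. The K-Ras replicates were close together and both Mll4-/- samples lay below them (28.9 ± 1.31 against 18.6 ± 2.89 CPM, SD, n = 2 each). Axin2 had a log2 fold change of -0.63 (SE 0.17) and missed the threshold (edgeR adjusted p = 0.177). It was negative under all 15 alternatives, from -0.79 to -0.43. Axin1, the constitutively expressed relative, was at 61.1 and 61.9 CPM against 66.7 and 72.8 CPM, so the ratio of Axin2 to Axin1 within a sample, which does not depend on scaling, was 0.488 and 0.452 in K-Ras and 0.310 and 0.228 in Mll4-/- samples. Relative to the epithelial marker Epcam, Axin2 was at 0.294 and 0.223 in K-Ras and 0.114 and 0.0711 in Mll4-/- samples. Epcam itself was higher in Mll4-/- samples, at 101 and 126 against 182 and 233 CPM (log2 fold change 0.87). The ratio to Epcam therefore holds the differences of both genes. The endothelial and fibroblast marker sums were also lower in both Mll4-/- samples, and their part in the Axin2 value was not tested.

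Notum encodes a secreted enzyme that removes the lipid from Wnt proteins. Its values were 4.77 and 3.02 CPM in K-Ras samples and 2.06 and 1.06 CPM in Mll4-/- samples, from 146, 109, 54 and 34 reads. Each group spread widely, yet the groups did not overlap (log2 fold change -1.33, SE 0.48, edgeR adjusted p = 0.220). This was the largest negative log2 fold change among the members. When 1 library was left out, that of Notum ran from -1.87 (without Mll4-/- replicate 1) to -0.93 (without Mll4-/- replicate 2). With the GC and length offsets it was -1.11. Antisense genes not analysed here cover up to 653 of the 2253 exonic bases of Notum, and the strand setting of the counting is not given in the sources used here.

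Nkd1 encodes an inhibitor of Dishevelled, the protein that relays the signal from Frizzled. It was the most abundant member per exon length in all 4 samples, at 35.9 and 51.3 FPKM in K-Ras and 33.6 and 24.7 FPKM in Mll4-/- samples. In CPM it was at 164 and 234 against 153 and 113, so the groups did not overlap but came close (log2 fold change -0.58, SE 0.26, edgeR adjusted p = 0.272). Without K-Ras replicate 2 the log2 fold change was -0.31, and without K-Ras replicate 1 it was -0.81. Its relative Nkd2 was at 19.1 and 47.7 CPM against 14.1 and 15.4 CPM (log2 fold change -1.18, SE 0.46, edgeR adjusted p = 0.242). Nkd1, Nkd2, Lgr4 and Wnt11 were each highest in K-Ras replicate 2, the sample with the high ciliated and club markers, and the part of those cells was not tested.

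Rnf43 and Znrf3 encode paired membrane ubiquitin ligases that clear Frizzled receptors from the cell surface. Rnf43 was at 11.7 and 19.2 CPM in K-Ras samples and at 19.9 and 23.6 CPM in Mll4-/- samples. Znrf3 was at 23.6 and 26.9 CPM against 19.2 and 20.8 CPM. The paralogues thus differed in direction: the log2 fold change was 0.49 for Rnf43 (SE 0.29, edgeR adjusted p = 0.374) and -0.34 for Znrf3 (SE 0.16, edgeR adjusted p = 0.285), with neither called. Znrf3 was at -0.16 with the GC and length offsets. K-Ras replicate 2 and Mll4-/- replicate 1 were almost level for Rnf43, and without K-Ras replicate 2 its log2 fold change was 0.88, against 0.18 without K-Ras replicate 1. Within a sample, the ratio of Rnf43 to Znrf3 CPM was 0.497 and 0.713 in K-Ras and 1.04 and 1.13 in Mll4-/- samples, and the groups did not overlap. With 2 samples a group, the smallest two-sided p that an exact permutation test can give on such a ratio is 0.333, and the ratios are given as values without a test.

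**Figure D4:**
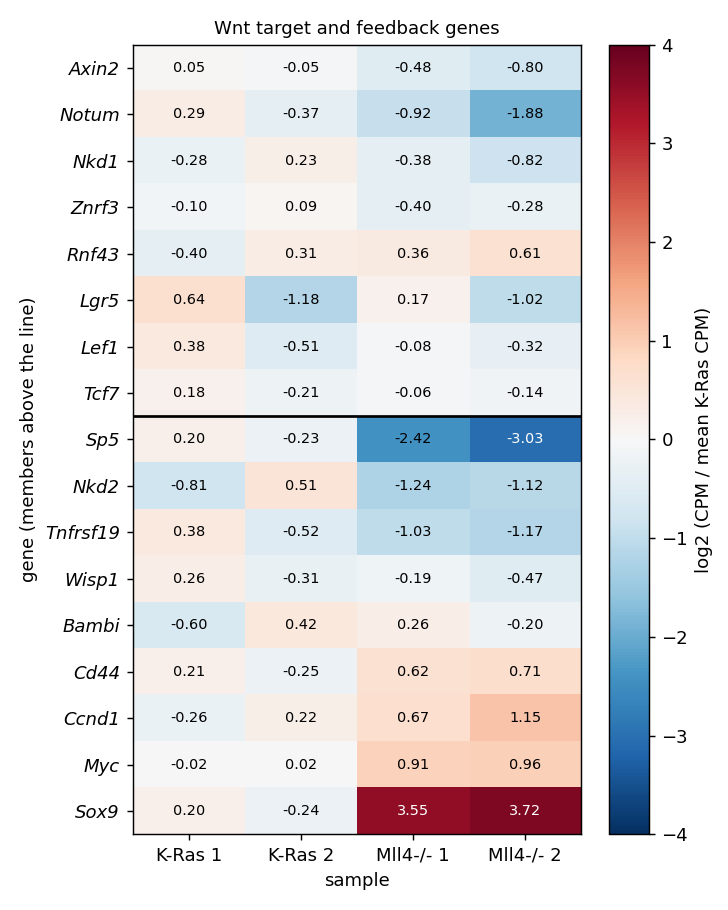
Log2 of CPM over the mean K-Ras CPM (colour and printed values) for 8 members and 9 further Wnt target genes (rows, members above the line) in each of the 4 samples (columns). Axin2, Notum, Nkd1, Znrf3, Sp5, Nkd2 and Tnfrsf19 are below both K-Ras samples in both Mll4-/- samples, while Rnf43, Cd44, Ccnd1, Myc and Sox9 are above.

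Beyond the members, other genes described as Wnt targets lay on both sides. Of 10 listed, 9 were tested, with 4 higher and 2 lower at an unadjusted p under 0.05, where the shares over all tested genes were 11.4% and 10.4%. Sp5, a direct target that encodes a zinc-finger factor, was at 3.50 and 2.6 CPM in K-Ras and 0.571 and 0.372 CPM in Mll4-/- samples (log2 fold change -2.69, SE 0.44, edgeR adjusted p = 0.144; DESeq2 adjusted p = 0.00106). Tnfrsf19 was also lower, at 12.6 and 6.72 CPM against 4.72 and 4.28 CPM (edgeR adjusted p = 0.209). Sp5 thus lay on the same side as Axin2, Notum and Nkd1.

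The higher targets included growth regulators that also answer to many other pathways. Myc, a growth-promoting transcription factor, was at 33.3 and 34.4 CPM in K-Ras and 63.8 and 66.0 CPM in Mll4-/- samples (log2 fold change 0.94, SE 0.12, edgeR adjusted p = 0.128; DESeq2 adjusted p = 1.81e-04). Ccnd1, the gene of the G1 regulator cyclin D1, was at 229 and 320 CPM against 437 and 608 CPM (log2 fold change 0.93, SE 0.27, edgeR adjusted p = 0.184; DESeq2 adjusted p = 0.0233). Cd44, a hyaluronan receptor, was at 451 and 329 CPM against 601 and 638 CPM (log2 fold change 0.67, SE 0.22, edgeR adjusted p = 0.199). Sox9, a progenitor transcription factor of the lung, stood furthest apart, at 4.02 and 2.96 CPM against 40.9 and 46.1 CPM. Among the pathway genes Sox9 had the smallest adjusted p, with a log2 fold change of 3.64 and an SE of 0.23 (edgeR adjusted p = 0.0603; DESeq2 adjusted p = 7.38e-32). The epithelial marker sum was also higher in both Mll4-/- samples (3514 and 3702 against 1107 and 1723 CPM). Of its 6 markers, 5 were higher at an unadjusted p under 0.05 (edgeR), against 11.4% of all tested genes, and Nkx2-1 overlapped. The part of these markers' cells in the Myc, Ccnd1, Cd44 and Sox9 values was not tested.

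Of the secreted and membrane antagonists, 9 of the 11 tested had a negative log2 fold change, as did 51.2% of all tested genes, and the median was -0.70. At an unadjusted p under 0.05, 1 was higher and 1 lower, against 11.4% and 10.4% of all tested genes. The fibroblast marker sum was 2467 and 1124 CPM in K-Ras and 838 and 853 CPM in Mll4-/- samples, and its part in these values was not tested. Apcdd1, an inhibitor that binds Wnt and Lrp5 and is itself a target, was at 10.9 and 7.69 CPM against 5.79 and 4.96 CPM (log2 fold change -0.79, SE 0.28, edgeR adjusted p = 0.216). The exceptions were Sfrp4, whose groups overlapped (log2 fold change 0.13), and Kremen2, a receptor for Dickkopf inhibitors. Kremen2 was at 1.05 and 1.66 CPM against 4.65 and 6.14 CPM (log2 fold change 1.99, SE 0.38, edgeR adjusted p = 0.147; DESeq2 adjusted p = 0.00252). Its relative Kremen1 had a log2 fold change of -0.46 (edgeR adjusted p = 0.299). Dkk3, a Dickkopf relative, was at 61.9 and 29.2 CPM against 24.1 and 23.9 CPM (edgeR adjusted p = 0.254), and K-Ras replicate 1, its highest sample, was also the highest in the fibroblast markers. Without that library the log2 fold change of Dkk3 was -0.28.

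In the core of the pathway, 12 genes of cytoplasmic transduction and the destruction complex, log2 fold changes ran from -0.35 to 0.36. Of these, 1, the ubiquitin ligase subunit gene Btrc, had an unadjusted p under 0.05 and was lower. Over all tested genes, 10.4% were lower and 11.4% higher at that level. Both Mll4-/- samples lay above both K-Ras samples in 3 of the 12 genes and below them in 3. The shares over all tested genes were 29.9% and 28.5%. Ctnnb1, which encodes beta-catenin, was at 1021 and 1096 CPM in K-Ras and 1333 and 1389 CPM in Mll4-/- samples (log2 fold change 0.36, SE 0.18, edgeR adjusted p = 0.310). Csnk1a1, a kinase gene of the complex, overlapped between the groups (log2 fold change 0.09, SE 0.14). Dvl1, a Dishevelled gene, differed by -0.28 in log2 CPM (SE 0.14, edgeR adjusted p = 0.299), which turned to 0.02 with offsets for GC content and length. Across all 7 lists of other pathway genes, 75 of 90 genes were tested. Of these 75, 12 were higher and 10 lower at an unadjusted p under 0.05 (edgeR), beside 11.4% and 10.4% of all tested genes. At an adjusted p under 0.05, 0 were called by edgeR, 0 by limma-voom and 10 by DESeq2, which called 10.4% of all genes.

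**Figure D5:**
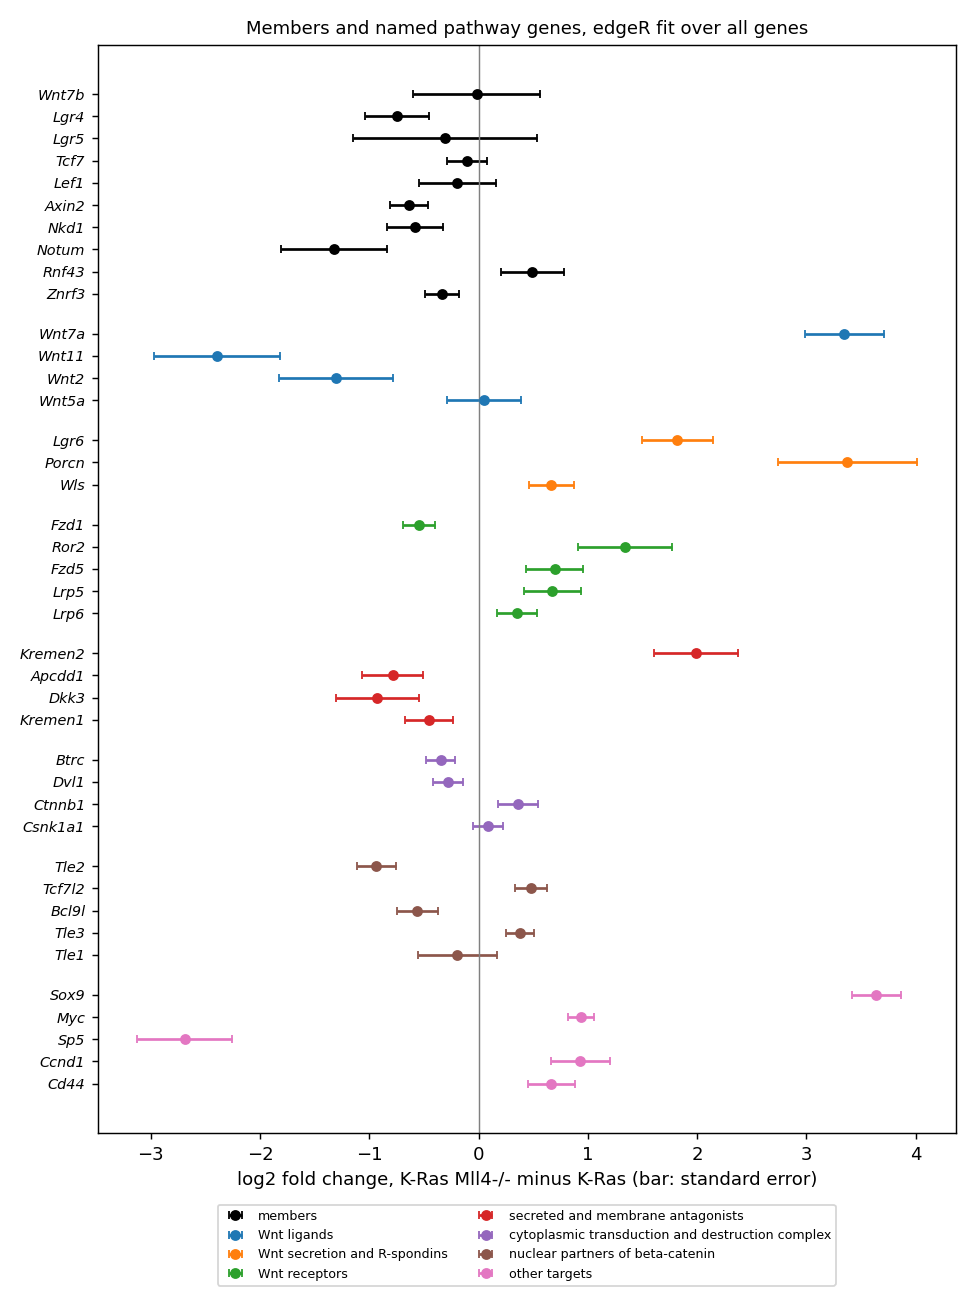
Log2 fold change of K-Ras Mll4-/- minus K-Ras (x axis, bars for the standard error) for the 10 members and for the pathway genes named here, coloured by list. Among the members, 9 of 10 points lie left of 0, between -1.33 and -0.02, with Rnf43 at 0.49, while Wnt7a, Porcn and Sox9 lie beyond 3 to the right.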

How the data were processed

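RNA from 4 CD45-depleted mouse lung tumour samples was sequenced on an Illumina instrument, per the labels' protocols. For each sample the authors deposited unnormalised counts of reads by gene symbol. The submitters' processing notes name CASAVA 1.4, STAR, HTSeq and the mouse build mm9. The annotation and strand setting are not given in the sources used here. Reads without a gene, including those aligned to several places, made up 60.1% to 65.6% of the tallied reads and were left out.

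All 24391 genes entered 1 fit of Mll4-/- minus K-Ras (edgeR 4.0.16 in R 4.3.3, filterByExpr, TMM scaling, robust quasi-likelihood test, Benjamini-Hochberg over 16001 genes, called at adjusted p under 0.05). The SE is the size of the log2 fold change over the square root of F. FPKM used GENCODE M21 (GRCm38) exon-union lengths, so levels between genes are approximate where the authors' annotation differs. Alternatives were other scalings and filters, the replicate block, DESeq2 1.42.0, limma-voom 3.58.1, a non-robust fit and leaving out each sample. GC and length offsets (mgcv 1.9.3) were added after seeing the data. Fits were also run on simulated counts in which all genes shared the same level of variability. That setting is simpler than these samples, and nothing about these data is concluded from it. Named pathway genes were, per list, the 3 with the smallest p and the 2 with the highest FPKM. Axin1, Tnfrsf19, Nkd2 and the R-spondins were named after their values were seen. Members and lists were chosen with earlier results of these data known.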

Additional observations from a re-analysis of the deposited data

How the results depend on the processing

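No member was called under any of the 15 alternatives run, and their median log2 fold change stayed negative (from -0.53 to -0.17). Members with an unadjusted p under 0.05 numbered 2, against 4 with total count scaling, 0 with GC and length offsets, and 0 to 5 when leaving out each library. The number of genes called was 6, all higher, with edgeR, 44 without a count filter (42 higher), 1601 with DESeq2 (804 higher) and 0 with limma-voom (0 higher). It ranged from 0 to 528 (0 to 110 higher) when leaving out each library, the highest without K-Ras replicate 1. Where an arm kept 1 sample, that sample was assumed to vary like the other group. With the replicate number as a block 217 genes were called (199 higher), and 251 (236 higher) when the block was joined with GC and length offsets. With only 2 pairs the shared numbers do not show pairing, and same-numbered samples' deviations correlated across genes at r = 0.213. Other pathway genes called numbered 0 with edgeR, 1 without a count filter (Sox9), 3 with the block (Wnt7a, Porcn and Sox9), 10 with DESeq2, 4 with the block and offsets (those 3 and Myc), and 0 to 4 when leaving out each library. Those with an unadjusted p under 0.05 numbered 22, and 8 to 24 when leaving out each library.

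Of 614 values of single genes under the alternatives, 19 changed sign, all of genes with small fold changes. With the block, Wnt7b was at 0.21 on the log2 scale. With limma-voom it was at 0.17. With GC and length offsets, Wnt7b was at 0.28, Tcf7 at 0.0115 and Dvl1 at 0.0238, and with block and offsets Wnt7b was at 0.48, Tcf7 at 0.0226, Dvl1 at 0.018 and Tle1 at 0.0736. Wnt5a was at -0.0139 with upper quartile and -0.017 with total count scaling. Leaving out each library gave ranges of -0.63 to 1.08 for Wnt7b, -0.99 to 0.85 for Lgr5, -0.59 to 0.32 for Lef1, -0.30 to 0.11 for Tcf7, -0.35 to 0.57 for Wnt5a and -0.61 to 0.39 for Tle1. The cause was not tested. Lgr5 had 7 to 21 reads in each library.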
